A study of Mus musculus with 4 samples.

Results

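The genes described here were the STEAP metalloreductases and the core genes of cellular iron handling in 4T1Br cells, a line derived from mouse 4T1 mammary tumour cells that homes to brain. The list named 10 genes: Steap1, Steap2, Steap3, Steap4, Tfrc, Fth1, Ftl1, Slc40a1, Slc11a2 and Ireb2. A gene was taken where the platform annotation gave a probe set that gene's symbol and no other. By this rule 9 of the 10 genes were found, each with 1 probe set, among 22180 genes named on the array. Ftl1, the ferritin light chain, shared all 6 of its probe sets with other symbols and was not analysed here. The 10 genes were proposed with the difference between the 2 groups of this study already known, so their own differences are given as a description, without a test.

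Total RNA was measured on 4 Affymetrix arrays. The 2 shControl arrays came from 4T1Br cells transduced with a control hairpin lentivirus, and the 2 shYTHDF3 arrays from 4T1Br cells transduced with a hairpin lentivirus against YTHDF3, a reader protein of N6-methyladenosine in messenger RNA; both groups were selected with puromycin. The line is 4T1Br by its cell line label, while titles write 4T1. The labels name no hairpin sequence, number of hairpins or clone, nor separate cultures, so the spread between arrays of a group may be technical. The question was which transcripts were more or less abundant with one hairpin than with the other.

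Iron enters most cells bound to transferrin, through the transferrin receptor, and is released from transferrin in endosomes as ferric iron. Metalloreductases of the STEAP family reduce it there to ferrous iron, which the transporter DMT1 carries into the cytosol. Ferritin stores the surplus, ferroportin exports it, and the iron regulatory proteins bind iron-responsive elements in messenger RNA, stabilising that of the transferrin receptor and holding back translation of ferritin when iron is scarce.

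Ythdf3 itself, the targeted gene, read 8.98 and 8.81 (log2) with the control hairpin against 8.21 and 8.16 with the YTHDF3 hairpin, and fell by 0.71 on the log2 scale (SE 0.10, limma adjusted p = 0.0355). The call was lost in 7 of 13 alternatives, with adjusted p of 0.0758 to 0.193: with dim probe sets kept, with a block by replicate number, with all probe sets tested and without any 1 array. Array medians over all probe sets lay between 4.42 and 4.47. The background level was log2 4.28, taken from olfactory receptor probe sets (95th percentile of their mean values); 13056 genes had a mean above it and were tested. Of 6 markers of mammary epithelial carcinoma cells, Krt8 and Krt18 read between 10.04 and 11.13, Cdh1 between 4.37 and 4.61, and Epcam was below background on average, at 3.80 to 4.05. Of the 5 above background, Krt7 rose by 1.503 (limma adjusted p = 0.00816) and 4 did not pass, with differences of 0.57 for Krt18, 0.31 for Krt8, 0.10 for Cdh1 and -0.53 for Krt19 (limma adjusted p of 0.0527, 0.151, 0.612 and 0.0816). The part of these keratin differences in the values below was not tested. Some markers of other cell types were above background too. They were 2 of 4 erythroid markers (Klf1 and Tmcc2) and 2 of 10 macrophage and leukocyte markers (Spi1 and Marco). Apoa1 was above it as 1 of 5 hepatocyte markers, and Col1a1, Col1a2, Pdgfrb and Cdh5 as 4 of 8 fibroblast and vessel markers. Col1a1 read between 4.94 and 5.38 and Pdgfrb between 5.18 and 5.44. Others lay close to the background level of 4.28: Spi1 read between 4.41 and 4.77 and Apoa1 between 4.30 and 4.69. Klf1 read between 4.22 and 4.62 and Cdh5 between 4.26 and 4.42, so their lowest arrays were under that level. Ptprc, Adgre1, Alb and Lum were among the markers below background. By limma none of the 9 genes above background passed the test, and 0 had an unadjusted p under 0.05.

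The upstream sequences of 2 STEAP genes and a short stretch near the start of Tfrc are shown because these were the 3 members with the most negative differences between the hairpins. They are from RefSeq, build GRCm38.p6, printed 5′ to 3′ on the gene's own strand. Steap1 lies on the minus strand, and the 250 bases before its start are chr5:5749318-5749567, with capitals marking the GC box letters GGGCGG. Steap4 lies on the plus strand, and the 250 bases before its start are chr5:7960222-7960471, with capitals marking a match to TTCNNNGAA, the letters of a STAT element. The Tfrc stretch is chr16:32608882-32608911 on the plus strand, before the downstream one of its 2 RefSeq starts. Its capitals mark ACGTG, the core letters bound by hypoxia-inducible factors. The 250 bases before the upstream start end at chr16:32608895, within these marked letters, so the stretch crosses that start.
Steap1: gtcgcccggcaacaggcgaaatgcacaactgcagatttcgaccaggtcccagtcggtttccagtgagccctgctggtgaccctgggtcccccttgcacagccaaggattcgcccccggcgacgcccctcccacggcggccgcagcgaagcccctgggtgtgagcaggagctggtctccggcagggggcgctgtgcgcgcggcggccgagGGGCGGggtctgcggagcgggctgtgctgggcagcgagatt
Steap4: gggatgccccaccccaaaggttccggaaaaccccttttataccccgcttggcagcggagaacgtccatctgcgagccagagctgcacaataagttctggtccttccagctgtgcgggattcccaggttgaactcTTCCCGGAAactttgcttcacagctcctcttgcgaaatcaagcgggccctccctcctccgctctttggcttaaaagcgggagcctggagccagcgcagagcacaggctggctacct
Tfrc: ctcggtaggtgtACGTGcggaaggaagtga

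Matches to 5 sets of letters were counted on both strands of the 250 bases before each start, in 32851 RefSeq windows. The STAT letters TTCNNNGAA stood in 7.02% of all windows, ACGTG in 16.6%, the GC box GGGCGG in 32.7%, CCAAT in 33.8% and the cyclic AMP response letters TGACG in 17.8%; ACGTG and TGACG can share bases. Windows were found for 8 of the 10 genes, 15 in all. Steap1 had 1 window, with a GC box match 41 bases before the start and no match to the other 4. Steap4 also had 1, with the STAT letters 116 bases before the start and no match to the other 4. Steap2 had 3 windows, and they held 2 GC box matches, 1 STAT match, 1 ACGTG match, 1 CCAAT match and 1 TGACG match between them. The downstream window of Tfrc held ACGTG 228 bases, TGACG 213 bases and a GC box 35 bases before the start, and its upstream window held a CCAAT box. GC box matches also stood in windows of Steap3, Fth1, Ftl1 and Ireb2, and CCAAT matches in windows of Steap3, Fth1 and Ftl1. The windows of these genes held no match to the STAT letters, ACGTG or TGACG. A match shows only that the letters are present.

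Among the reductases, the difference between the hairpins was not shared evenly. Steap1, which lacks the cytosolic NADPH-binding domain of its relatives and is known to work in complexes with them, read 9.08 and 8.96 with the control hairpin and 7.33 and 7.36 with the YTHDF3 hairpin (log2). Both shYTHDF3 arrays lay far below both shControl arrays, with a gap of 1.60 between the groups against a gap of 0.12 within shControl and 0.03 within shYTHDF3. The group means were 9.02 ± 0.08 and 7.35 ± 0.02 (SD, n = 2 each), a difference of -1.68 with limma's moderated SE of 0.10, so that 31.3% of the shControl level was left. Steap1 had the 14th most negative difference of the 13056 genes tested.

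**Figure D1:**
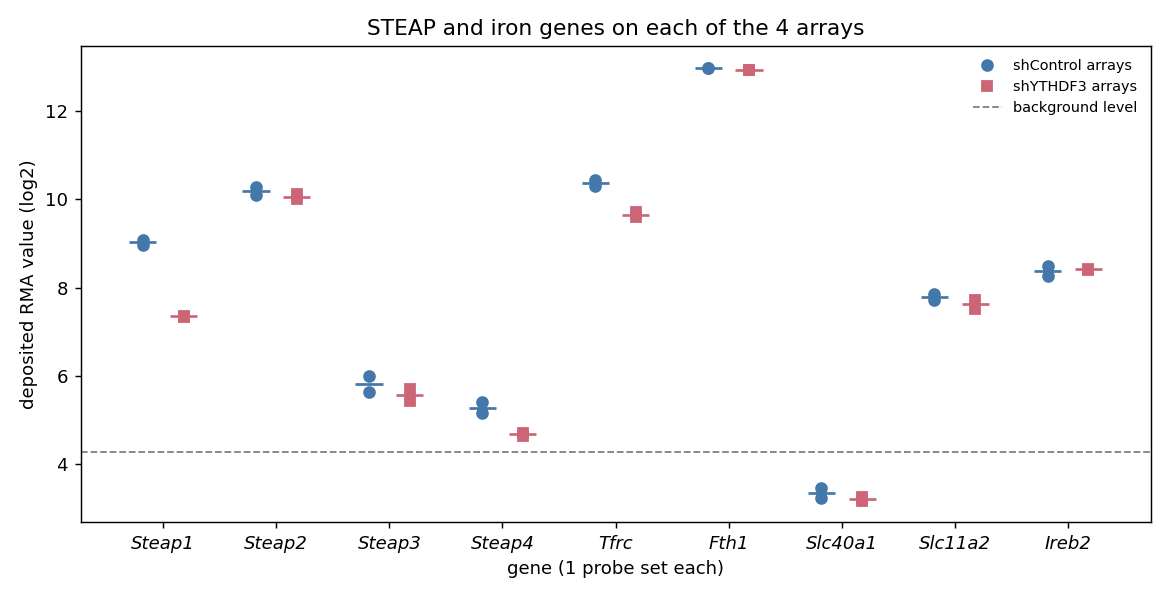
Deposited log2 values of the 9 genes on the 2 shControl arrays (circles) and the 2 shYTHDF3 arrays (squares), with short lines at the group means and a dashed line at the background level of 4.28. The groups stand apart for Steap1, Steap4 and Tfrc, and Slc40a1 lies below the background on every array; heights of different genes are not comparable, since each probe set has its own response.

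Steap4, a metalloreductase known for its induction by inflammatory cytokines and nutrients in fat and other tissues, read 5.15 and 5.41 with the control hairpin and 4.71 and 4.65 with the YTHDF3 hairpin. The groups did not overlap, and the lowest shControl array stood 0.44 above the highest shYTHDF3 array. The means were 5.28 ± 0.18 and 4.68 ± 0.05 (SD, n = 2 each), a difference of -0.60 (SE 0.12), or 66.0% of the shControl level. The shYTHDF3 values stood close above the background level of 4.28, where arrays can understate a difference; this was not tested for Steap4.

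The other 2 reductases showed smaller differences with overlapping groups. Steap2, a metalloreductase of the plasma membrane and secretory pathway, read 10.28 and 10.09 with the control hairpin and 10.11 and 9.995 with the YTHDF3 hairpin, a difference of -0.13 (SE 0.11). Steap3, the endosomal ferrireductase best known from red cell precursors, read 5.64 and 5.998 with the control hairpin and 5.44 and 5.71 with the YTHDF3 hairpin, a difference of -0.25 (SE 0.16). The spread within a group was widest for Steap3, its shControl arrays being 0.35 apart. Both differences moved by more than 1.5 times with single arrays: that of Steap3 was -0.42 when shControl 1 was left out and -0.38 when shYTHDF3 2 was, but -0.07 when shControl 2 was left out and -0.11 when shYTHDF3 1 was, and that of Steap2 was -0.23 without shControl 2, -0.04 without shControl 1 and -0.07 without shYTHDF3 2.

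A difference between 2 genes of the same array is not moved by a shift of the whole array. Steap1 minus Steap2 was -1.20 and -1.13 (log2) with the control hairpin against -2.78 and -2.63 with the YTHDF3 hairpin, a change of -1.54 between the groups. Steap1 minus Steap4 changed by -1.08 and Steap1 minus Steap3 by -1.43. The difference between the hairpins was thus larger for Steap1 than for each of its 3 relatives on the same arrays, given here as a description.

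**Figure D2:**
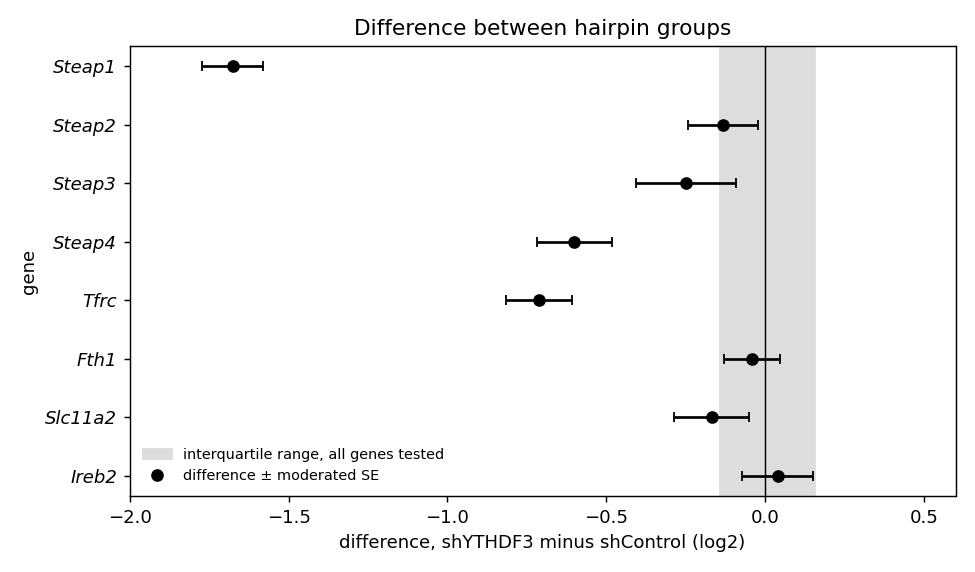
Difference of group means, shYTHDF3 minus shControl (log2), for each of the 8 genes above background, with limma's moderated SE as bars; the grey band spans the interquartile range of all 13056 genes tested, from -0.14 to 0.16. Steap1 at -1.68, Tfrc at -0.71 and Steap4 at -0.60 lie outside the band with their bars, while the other 5 points lie nearer 0; Slc40a1, below background, is not plotted.

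Steap1 and Steap2 are adjacent on mouse chromosome 5 in the RefSeq gene order, and Steap4 follows further along. The genes around them were looked at after the Steap1 values were seen. On the Steap2 side, Cfap69 differed by 0.25 (SE 0.21), Gtpbp10 by -0.41 (SE 0.12) and the claudin gene Cldn12 by -0.30 (SE 0.09). Between Steap1 and Steap4, Zfp804b and Tex47 were below background on average. Beyond Steap4, Sri, which encodes the calcium-binding protein sorcin, differed by 0.17 (SE 0.11), the replication kinase regulator gene Dbf4 by -0.16 (SE 0.13) and the mitochondrial carrier gene Slc25a40 by 0.05 (SE 0.11). By limma none of these 6 neighbours above background passed the test (adjusted p of 0.124 to 0.837), and 2 of them, Gtpbp10 and Cldn12, had an unadjusted p under 0.05, as did 22.6% of all genes tested.

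**Figure D3:**
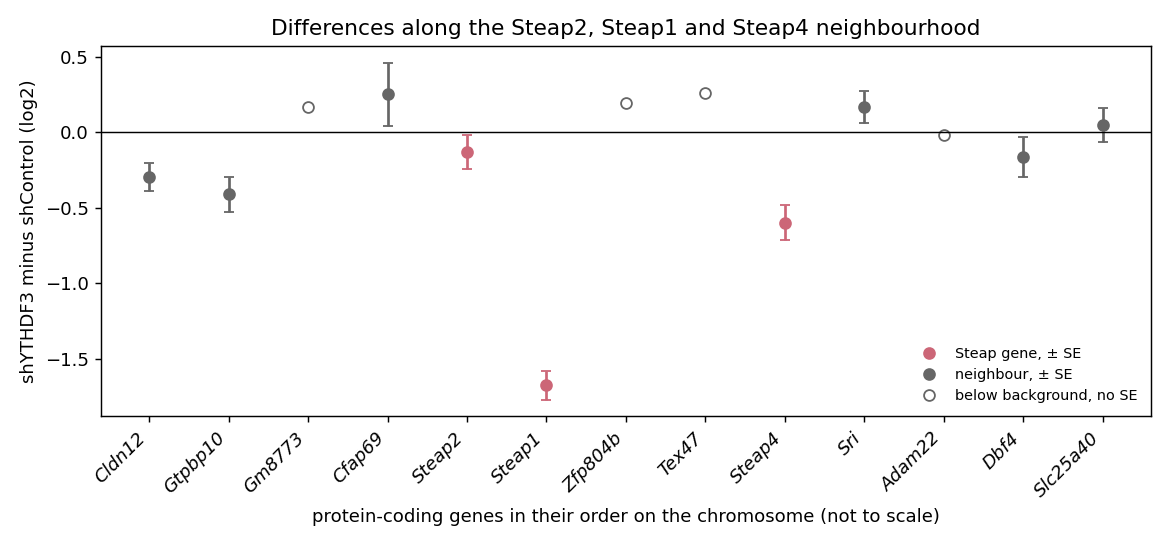
Difference, shYTHDF3 minus shControl (log2), of protein-coding genes with a probe set in their order along the chromosome around Steap2, Steap1 and Steap4; bars are limma's moderated SE, and open points were below background. Steap1 at -1.68 and Steap4 at -0.60 lie lower than every neighbour plotted, while Steap2, next to Steap1, is at -0.13.

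For uptake, Tfrc, the transferrin receptor, read 10.43 and 10.30 with the control hairpin and 9.72 and 9.59 with the YTHDF3 hairpin. Both shYTHDF3 arrays were below both shControl arrays, by a gap of 0.58 against 0.14 and 0.13 within the groups. The means were 10.37 ± 0.10 and 9.65 ± 0.09 (SD, n = 2 each), a difference of -0.71 (SE 0.10), leaving 61.1% of the shControl level. Slc11a2, which encodes DMT1, read 7.86 and 7.72 with the control hairpin and 7.73 and 7.51 with the YTHDF3 hairpin, with overlapping groups and a difference of -0.17 (SE 0.12), which was -0.28 without shYTHDF3 1, -0.06 without shYTHDF3 2 and -0.10 without shControl 1.

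For storage and export, Fth1, the ferritin heavy chain with ferroxidase activity, read 12.96 and 12.98 with the control hairpin and 12.94 and 12.92 with the YTHDF3 hairpin. Its groups did not overlap, but the gap was only 0.03 and the difference -0.04 (SE 0.09); with quantile normalization applied once more the difference was -0.0078. Slc40a1, which encodes ferroportin, the iron exporter, read 3.24 and 3.46 with the control hairpin and 3.18 and 3.26 with the YTHDF3 hairpin, below the background level on all 4 arrays, so it was not tested and no fold is given.

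For sensing, Ireb2, which encodes iron regulatory protein 2, read 8.49 and 8.26 with the control hairpin and 8.40 and 8.43 with the YTHDF3 hairpin. Both shYTHDF3 values lay between the shControl values, and the difference was 0.04 (SE 0.11). It was -0.08 without shControl 2 and 0.15 without shControl 1, so its sign rested on single arrays. Within each array, Tfrc minus Fth1 was -2.53 and -2.68 with the control hairpin and -3.22 and -3.33 with the YTHDF3 hairpin, a change of -0.67, and Tfrc minus Ireb2 changed by -0.75. The receptor transcript was thus lower relative to both the ferritin heavy chain and Ireb2 transcripts on each shYTHDF3 array than on each shControl array.

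Of the 9 genes found, 8 had a mean above background. Among these 8, limma put 2 past the threshold of an adjusted p of 0.05, Steap1 and Tfrc, both lower in shYTHDF3, and 0 higher, against 2.73% of all 13056 genes in either direction, 1.45% lower and 1.28% higher. Groups did not overlap in 4 of the 8 (Steap1, Steap4, Tfrc and Fth1), all with lower values in shYTHDF3, against 54.0% of all genes tested in either direction and 25.7% with lower values. Differences were negative in 7 of the 8, against 48.9% of all genes, and reached 0.5 in size in 3, against 6.17%. The median difference of the 8 was -0.21, beside 0.0057 over all genes tested. Since the genes were proposed with this contrast known, these shares are given for completeness and nothing is read from them.

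For the 3 genes with the most negative differences, leaving out 1 array kept the sign of the difference. The calls of Steap1 and Tfrc were often lost, and Steap4 was not called in the main fit. With 1 array left out the Steap1 difference ran from -1.74 to -1.62, that of Tfrc from -0.78 to -0.64 and that of Steap4 from -0.73 to -0.47. Steap1 stayed past the threshold without shYTHDF3 1 and did not without shControl 1, shControl 2 or shYTHDF3 2, and Tfrc did not pass without any of the 4; such fits called at most 12 of all genes. An intensity trend in limma's variance model put Steap4 past the threshold too, where it called 1426 of all genes.

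Other genes of iron metabolism were described through 5 lists chosen by function. The lists were drawn up with earlier results of these data known, so their counts are given as a description. Of 18 genes of iron uptake and intracellular transfer above background, limma called 0 (before adjustment, p was under 0.05 for 3 with a positive and 1 with a negative difference, against 22.6% of all genes tested; 3 were called with an intensity trend), and the median difference was -0.02. The largest difference among them was that of Slc39a14, which encodes the iron and zinc importer ZIP14. It read 8.47 and 8.58 with the control hairpin and 8.14 and 7.90 with the YTHDF3 hairpin, a difference of -0.50 (SE 0.12, limma adjusted p = 0.0835, and 0.0112 to 0.336 over the alternatives). Tcirg1, a subunit gene of the proton pump that acidifies endosomes and lysosomes, read 6.75 and 6.83 with the control hairpin and 7.27 and 7.18 with the YTHDF3 hairpin, a difference of 0.43 (SE 0.10, limma adjusted p = 0.0764).

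Of 17 genes of iron export and the hepcidin axis, limma called 0 (before adjustment, p was under 0.05 for 3 with a positive and 1 with a negative difference, against the same 22.6%; 1 was called with an intensity trend), with a median of 0.04. Cp, ceruloplasmin, a copper ferroxidase that works with ferroportin, read 11.17 and 11.09 with the control hairpin and 11.37 and 11.55 with the YTHDF3 hairpin, a difference of 0.33 (SE 0.10, limma adjusted p = 0.147). Acvr1, a receptor of bone morphogenetic protein signalling to hepcidin, differed by -0.31 (SE 0.09, limma adjusted p = 0.124). Hamp, which encodes hepcidin itself, was below background on all 4 arrays.

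Of 15 genes of iron sensing and ferritin turnover, Ciao1 fell and 14 did not pass, with a median of -0.06. Before adjustment, limma's p was under 0.05 for 0 with a positive and 1 with a negative difference, against 22.6% of all genes tested. Ciao1, a component of the cytosolic machinery that places iron-sulphur clusters on target proteins, read 8.62 and 8.66 with the control hairpin and 7.85 and 7.76 with the YTHDF3 hairpin. It fell by 0.84 (SE 0.09, limma adjusted p = 0.0240), and its call was lost in 7 of 13 alternatives. These were keeping dim probe sets (limma adjusted p = 0.0641), a block by replicate number (0.0692) and testing all probe sets (0.185). The others were the fits without any 1 array, where the difference ran from -0.88 to -0.80. Some other genes of this list, picked here by role after their values were seen, did not pass either. Aco1, which encodes iron regulatory protein 1, differed by 0.09. Fbxl5, the iron-sensing ubiquitin ligase subunit that marks Ireb2 protein for breakdown, differed by -0.15, and Ncoa4, the receptor for ferritin autophagy, by -0.05.

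Of 25 genes of haem synthesis, breakdown and transport, Hmox1 fell and 24 did not pass, with a median of -0.03. Before adjustment, limma's p was under 0.05 for 5 with a positive and 4 with a negative difference, against 22.6% of all genes tested. An intensity trend called 3 of these haem genes, and 4 with robust estimation. Hmox1, the inducible haem oxygenase that frees iron from haem, read 5.64 and 5.92 with the control hairpin and 5.05 and 5.10 with the YTHDF3 hairpin. It fell by 0.71 (SE 0.12, limma adjusted p = 0.0478), close to the threshold, and did not pass in 8 of 13 alternatives. These were repeated quantile normalization (limma adjusted p = 0.0541), no filter (0.110), a block by replicate number (0.0798) and testing all probe sets (0.201). The others were the fits without any 1 array, where the difference ran from -0.85 to -0.57. Of 24 genes of iron-sulphur cluster assembly, Ciao1, which this list shares with the sensing list, fell and 23 did not pass, with a median of 0.01. Before adjustment, limma's p was under 0.05 for 3 with a positive and 2 with a negative difference, against the same 22.6%. Per list, the called share is to be read beside the 2.73% of all genes called, which is less than 1 gene in a list of this size. With 1 array left out, the medians of the uptake, export and iron-sulphur lists crossed 0, and those of the export and iron-sulphur lists also did so under other settings.

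**Figure D4:**
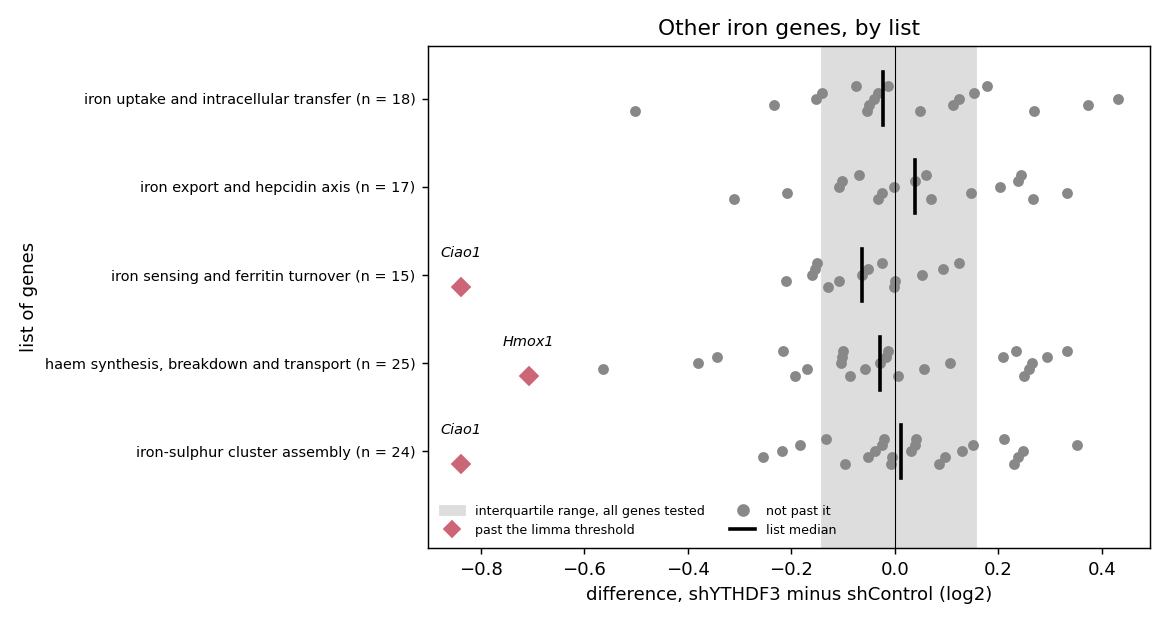
Difference, shYTHDF3 minus shControl (log2), of each gene above background in 5 lists of other iron genes, 15 to 25 genes a list; diamonds passed the limma threshold, circles did not, thick lines are list medians and the grey band is the interquartile range of all genes tested. Ciao1 at -0.84, a member of 2 lists, and Hmox1 at -0.71 are the genes past the threshold, and the 5 medians lie between -0.06 and 0.04.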

How the data were processed

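The deposited table holds 1 log2 value per probe set and array for 41345 probe sets, which the authors made with RMA, per the submitters' processing notes; for software, version and log base the sources used here give nothing, and log2 was taken from RMA's scale and the range of the values. RMA makes the distributions of arrays alike, so a shift of most genes would not be seen. The arrays' number limits the precision.

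The platform annotation gave 23521 probe sets 1 symbol, 1814 several and 16010 none; 23328 took the current RefSeq symbol by Entrez identifier. Where a gene had several probe sets, the one brightest on average stood for it. Background was set at the 95th percentile of 1108 olfactory receptor probe sets, by their mean; 9124 genes at or below it were not tested. Groups were compared with limma 3.58.1 (lmFit, eBayes) in R 4.3.3. Tests were two-sided and adjusted by Benjamini-Hochberg over 13056 genes. The step was also run on simulated data, with 500 changed genes of each size pooled over separate simulated sets. It called 5.4% of true log2 differences of 0.5 and 84% of those of 1. In each simulated set only a small share of genes was changed, while 22.6% of the genes tested here had a limma unadjusted p under 0.05. The adjusted threshold depends on that share, so these percentages may not hold for the real arrays. Differences are shYTHDF3 minus shControl, and SE is limma's moderated standard error. Figures were drawn with matplotlib 3.10.9.

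The 10 genes and the 5 lists were chosen with earlier results of these data known. Besides the 10 genes and Ythdf3, the text names from each list up to 3 rises and 3 falls past the threshold or, with none, the 2 largest differences; genes named otherwise are said to be so. Alternatives were dropping the filter or raising it to the median probe set, a variance trend with intensity (also robust), repeated quantile normalization, a common median, the mean of a gene's probe sets, a block by replicate number, testing every probe set, and leaving out each array.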

Additional observations from a re-analysis of the deposited data

How the results depend on the processing

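Of the 13 alternatives, 6 could move a difference of means in these genes: the 2 normalizations and the 4 fits without 1 array. In these 6 the differences of Steap1, Steap2, Steap3, Steap4, Tfrc, Fth1 and Slc11a2 kept their sign, and that of Ireb2 did in 5. When an array was dropped, its group's remaining array was assumed to vary like the other group; limma then called 0 to 12 of all genes, 0 to 1 of the 8 genes above background and 0 in each list, and the Ythdf3 difference ran from -0.79 to -0.63 (limma adjusted p of 0.138 to 0.193). With dim probe sets kept, 43 of the 22180 genes then tested were called (0.194%). Slc40a1 was tested too in that setting. Of the 9 genes only Steap1 was called, and 0 in the sensing, haem and iron-sulphur lists. Ythdf3, at -0.71, then had a limma adjusted p of 0.0866. With the replicate number as a block, 51 of all genes were called, 1 of the 8 (Steap1) and 0 in the same 3 lists. Ythdf3 was then at -0.71 with a limma adjusted p of 0.0758. The deviations of same-numbered arrays correlated at -0.07 over genes. With 2 arrays a group this is a single comparison, so it cannot show whether same-numbered arrays were prepared together. With all 21867 probe sets past the filter tested, 0 were called (3337 at an unadjusted p under 0.05) and 0 of the 8, with Ythdf3 at -0.71 and an adjusted p of 0.188. An intensity trend raised the count to 1426 (1465 with robust estimation), with 3 of the 8, 3 uptake, 1 export and 3 haem genes called (4 haem genes with robust estimation). Repeated quantile normalization left 0 haem calls. The cause of these changes was not tested.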

Other observations

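The haem genes that did not pass the test lay on both sides of 0; those given here were chosen after the values were seen. Alas1, the first enzyme of haem synthesis, read 8.43 and 8.60 with the control hairpin and 8.13 and 8.14 with the YTHDF3 hairpin, a difference of -0.38 (limma adjusted p = 0.110). The 6 later enzymes of the route with a probe set above background differed by 0.26 (Alad), 0.21 (Uros), 0.06 (Urod), -0.03 (Cpox), 0.23 (Ppox) and 0.26 (Fech), with limma adjusted p of 0.205 to 0.889; the groups overlapped for Urod and Cpox. Hmox2, the constitutive haem oxygenase, read 7.81 and 7.86 with the control hairpin and 8.03 and 8.31 with the YTHDF3 hairpin, a difference of 0.33 (limma adjusted p = 0.187), against the fall of Hmox1 by 0.71. Slc46a1, a folate and haem transporter gene, differed by -0.56 (limma adjusted p = 0.0856). The groups of Alas1, Hmox2 and Slc46a1 did not overlap, as was the case in 54.0% of all genes tested.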
